A study of Mus musculus with 12 samples.

Results

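Loss of the interferon gamma (IFN-γ) receptor chain Ifngr1 was examined in myeloid cells of injured mouse muscle while tumour necrosis factor (TNF) was neutralized. The comparison took every sample whose labels give an anti-TNF neutralizing antibody, which were 6 of the 12 samples of the study: 3 from Ifngr1 null/null mice (titled 40C2, 40A3 and 46C6) and 3 from wt/null mice (40A2, 40C1 and 46C7). Both genotypes therefore carried at least 1 null allele, and the controls were heterozygous, not wild type. The tibialis anterior muscle of all of them had been injured with notexin, a phospholipase of snake venom that kills muscle fibres, and antibody was injected into the abdomen every day afterwards. On day 5 the muscle was digested with enzymes and viable cells were sorted that carried CD45 and CD11B and lacked LY6G and SIGLECF, markers of neutrophils and eosinophils. The labels call these cells macrophages. The other 6 samples, from the same 2 genotypes, had received an isotype antibody and are used below only to show where the anti-TNF comparison differs. The structure of the null allele, and the age and sex of the mice, are not given in the sources used here, and neither is whether each sample was a separate mouse, so p-values measure the spread between these samples, which may be technical.

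IFN-γ is made mainly by T and NK cells and binds a receptor built from Ifngr1 and Ifngr2. The receptor signals through the kinases Jak1 and Jak2 to genes whose promoters hold GAS elements. These include Irf1 and other interferon regulatory factors, whose proteins act at ISRE elements, as does the complex that type I interferons activate. In macrophages the induced genes encode GTPases that attack intracellular microbes, the chemokines of the receptor Cxcr3, the immunoproteasome and the MHC pathways. TNF signals through Tnfrsf1a and Tnfrsf1b to NF-κB and shares some target genes with IFN-γ.

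The 6 samples held 25.56 to 26.49 M counts each (M, mega), and 12981 genes were tested. Libraries 40C1 (wt/null) and 40C2 (null/null) stood apart from the other 10 of the study: on the first principal component, which held 34.4% of the variance, they scored 54.24 and 45.87 and the others -20.84 to -3.474. Macrophage identity genes were present in all 6, with a summed level of 33600 to 39300 CPM (counts per M counts, scaled by TMM) over 14 genes, of which 0 were at 0. The defining T cell gene Cd3e was at 0.696 CPM in 40C1 and 0.72 in 40C2, and at 0.0759 to 0.335 in the other 4. Cd8a was at 5.65 CPM in 40C1, 2.99 in 40C2 and 0.304 to 1.09 in the others. Ifng, the ligand of the receptor, was at 2.91 and 1.48 CPM in 40C1 and 40C2 and at 0.114 to 0.427 in the others. Other cell markers set these 2 libraries apart as well. Dendritic cell genes had a median 0.92 higher on the log2 scale in 40C1 than the mean of the other wt/null anti-TNF samples. In 40C2 it was 0.51 higher than the mean of the other null/null ones. The same 2 medians were 2.55 and 1.72 for T and NK cell genes, -1.15 and -1.27 for osteoclast type genes and -0.92 and -1.41 for fibroblast genes. Over the 21 T and NK cell genes in the table the summed level was 220 to 307 CPM in wt/null and 250 to 282 CPM in null/null, most of it from Cd4 and Il7r, and 0 of the 21 were at 0 in all 6 samples. Of the 17 that were tested 14 had a lower estimate in null/null (12 without 40C1 and 40C2), at a median log2 difference of -0.42 (-0.22 without them). In all 3 pairs defined below 8 of the 17 were lower, against 13.1% of all genes tested. The median of these 17 was -0.40 in the 40A pair, -0.47 in the 40C pair and 0.03 in the 46C pair. Other marker lists also had medians away from 0, at 0.50 for 4 platelet and erythroid genes, 0.37 for 6 mast cell and basophil genes, 0.29 for 6 neutrophil genes (-0.10 without 40C1 and 40C2) and -0.22 for 12 endothelial genes. Most results below are therefore also given without 40C1 and 40C2, which leaves 2 against 2. The part of these cell markers in the results was not tested. In sorted bulk samples fewer cells of a type and less RNA per cell cannot be told apart.

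The first 3 characters of the sample titles (40A, 40C and 46C) each occurred in 1 wt/null and 1 null/null anti-TNF sample. The meaning of this prefix is not given, but samples that share it deviated together from their group means, so differences are also given within the 40A pair (40A3 against 40A2), the 40C pair (40C2 against 40C1) and the 46C pair (46C6 against 46C7). A fit of the 6 samples with the prefix as pairing was added after the data were seen. The deviations come from these same data, and 40C1 and 40C2 stood apart in both groups. Without them only 40A and 46C remain, whose titles also differ in their leading number. The deviations therefore cannot show that the prefix marks true pairs, and the paired calls below rest on this pairing.

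Promoter sequences are shown for IFN-γ-induced and type I interferon-induced genes that differ in how the genotypes separated, with matches to the GAS letters TTCNNNGAA or the ISRE core letters GAAANNGAA in capitals. They are RefSeq sequences of GRCm38.p6, given 5′ to 3′ on the strand of the gene, so that an ISRE on the other strand reads TTCNNTTTC. Isg15 and Ifit3 were chosen after their values were seen.
Gbp5, chr3:142496684-142496905, + strand: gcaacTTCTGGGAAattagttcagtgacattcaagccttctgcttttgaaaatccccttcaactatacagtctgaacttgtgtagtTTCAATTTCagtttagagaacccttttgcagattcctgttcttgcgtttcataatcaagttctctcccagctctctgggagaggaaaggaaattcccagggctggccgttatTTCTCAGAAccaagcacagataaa
Irf1, chr11:53769909-53769947, + strand: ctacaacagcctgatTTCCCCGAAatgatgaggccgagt
Gbp2, chr3:142620590-142620628, + strand: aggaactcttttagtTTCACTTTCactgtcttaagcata
Cxcl9, chr5:92328231-92328269, - strand: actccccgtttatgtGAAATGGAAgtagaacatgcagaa
Cxcl10, chr5:92349079-92349117, - strand: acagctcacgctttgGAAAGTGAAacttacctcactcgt
Isg15, chr4:156200861-156200911, - strand: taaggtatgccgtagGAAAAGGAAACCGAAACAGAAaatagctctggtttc
Ifit3, chr19:34583359-34583450, + strand: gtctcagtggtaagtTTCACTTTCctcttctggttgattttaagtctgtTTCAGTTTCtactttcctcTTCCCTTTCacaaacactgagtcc

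In windows from 250 bases before to 50 after the gene start, 8.32% of the 9911 tested genes with a promoter in the RefSeq table had a GAS match and 8.95% an ISRE match, on either strand. All 5 guanylate-binding protein genes in the table had an ISRE match and 2 of them a GAS match. Of 8 immunity-related GTPase genes, 6 had an ISRE and 5 a GAS match. Of 28 type I interferon-stimulated genes, 17 had an ISRE and 6 a GAS match. For 7 IFN-γ transcription factor genes these counts were 1 and 4. They were 2 and 0 for 3 Cxcr3 ligand and receptor genes, and 5 and 2 for 18 class I loading genes. Among 18 genes called lower in the paired fit, 10 had an ISRE and 0 a GAS match. Among 15 called lower without the 40C pair the counts were 10 and 5. Isg15 holds 3 overlapping ISRE matches 66 to 78 bases before its start. Ifit3 holds 3 separate ones. Gbp5 holds 2 GAS matches and 1 ISRE match, and Irf1 a GAS match 90 bases before its start. A match describes the letters of the window, not binding.

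Ifngr1 itself separated the genotypes. It had 226, 250 and 249 CPM in the wt/null samples 40A2, 40C1 and 46C7, and 119, 87.2 and 83.2 CPM in the null/null samples 40C2, 40A3 and 46C6. The groups did not overlap, and 40C2 was the highest of the null/null samples. In edgeR's quasi-likelihood test on all 12 samples it fell by 1.33 on the log2 scale (SE 0.12, adjusted p = 0.00103), and without 40C1 and 40C2 by 1.48. It was the 1 gene called lower in that fit (0.0077% of the genes tested, 0 called higher), with and without those libraries. A fit of only the 6 anti-TNF samples without pairing did not call it (adjusted p = 0.371). The gene lies at chr10:19591949-19610229 of GRCm38. Its partner chain Ifngr2 had 198 to 211 CPM in wt/null and 202 to 217 in null/null. The log2 difference of Ifngr2 was 0.03 (SE 0.08), and 0.08 without 40C1 and 40C2. Among the kinases Jak1 was at 0.08 and Jak2 at -0.08, neither with an unadjusted p below 0.05. Of the 14 receptor and JAK-STAT genes 6 were lower in all 3 pairs (42.9%, against 13.1% of all genes tested). Lower estimates were found for 9 of the 14, and for 8 without 40C1 and 40C2.

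**Figure D1:**
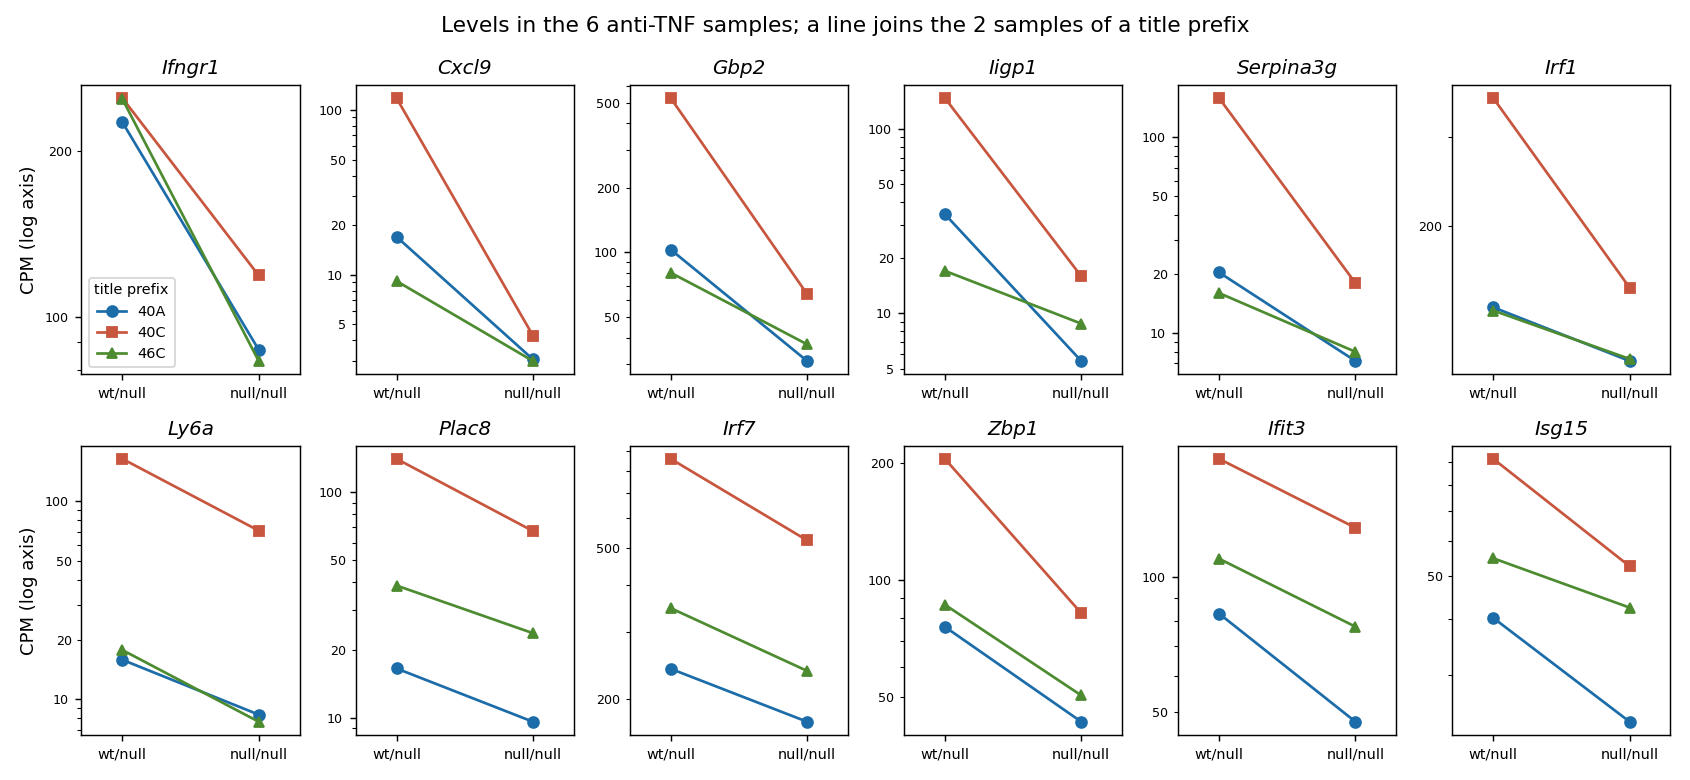
CPM on log axes of 12 genes in the 6 anti-TNF samples, wt/null at the left and null/null at the right of each panel, with a line joining the samples of a title prefix. Cxcl9, Gbp2 and Iigp1 drop most steeply in the 40C pair and their groups do not overlap, while for Ly6a, Plac8 and Irf7 the lines run closer to parallel and 40C2 stays above 40A2 and 46C7.

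Over all genes, 257 had an unadjusted p below 0.05 in the unpaired fit, 152 lower and 105 higher in null/null, and 143 had one without 40C1 and 40C2. DESeq2 called 2 genes, Ifngr1 and Cxcl9, and limma voom 1. Without 40C1 and 40C2 DESeq2 called Ifngr1 and Gbp6. By rank alone, 335 genes (2.58%) had all 3 null/null samples below all 3 wt/null samples and 334 (2.57%) had them above. Without 40C1 and 40C2, 11.1% of genes had 2 null/null samples below 2 wt/null samples and 11.2% above. Within title prefixes, 13.1% of genes were lower in null/null in all 3 pairs and 12.3% higher. These shares are the background for the counts below.

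With the samples paired by title prefix, edgeR called 30 genes, 28 lower in null/null (0.216% of genes tested) and 2 higher (0.0154%). DESeq2 paired called 60 and limma voom paired 28, and 26 of the 30 genes were called by both. With the 40C pair left out, 25 genes were called, 22 lower (0.169%) and 3 higher (0.0231%). Of these, 12 were among the 30, which is 40.0% of the first set and 48.0% of the second, and all 30 kept their direction. Leaving out the 40A pair gave 149 calls with 24 of the 30 among them, and leaving out the 46C pair gave 95 with 25. Gbp6, Gm21188, Gm4951, Ifi204, Klrk1 and Nlrc5 lost their call without the 40A pair, and Ccl17, Ddx3y, Gm21188, H2-T10 and Ly6e without the 46C pair. The 8 genes called whichever pair was left out were Ifngr1, Ly6a, Plac8, Ifi44, Zbp1, Ifi205, Ifit3 and Mnda. The 28 genes that fell did so by 0.48 to 2.14 on the log2 scale, with a median of -0.64.

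**Figure D2:**
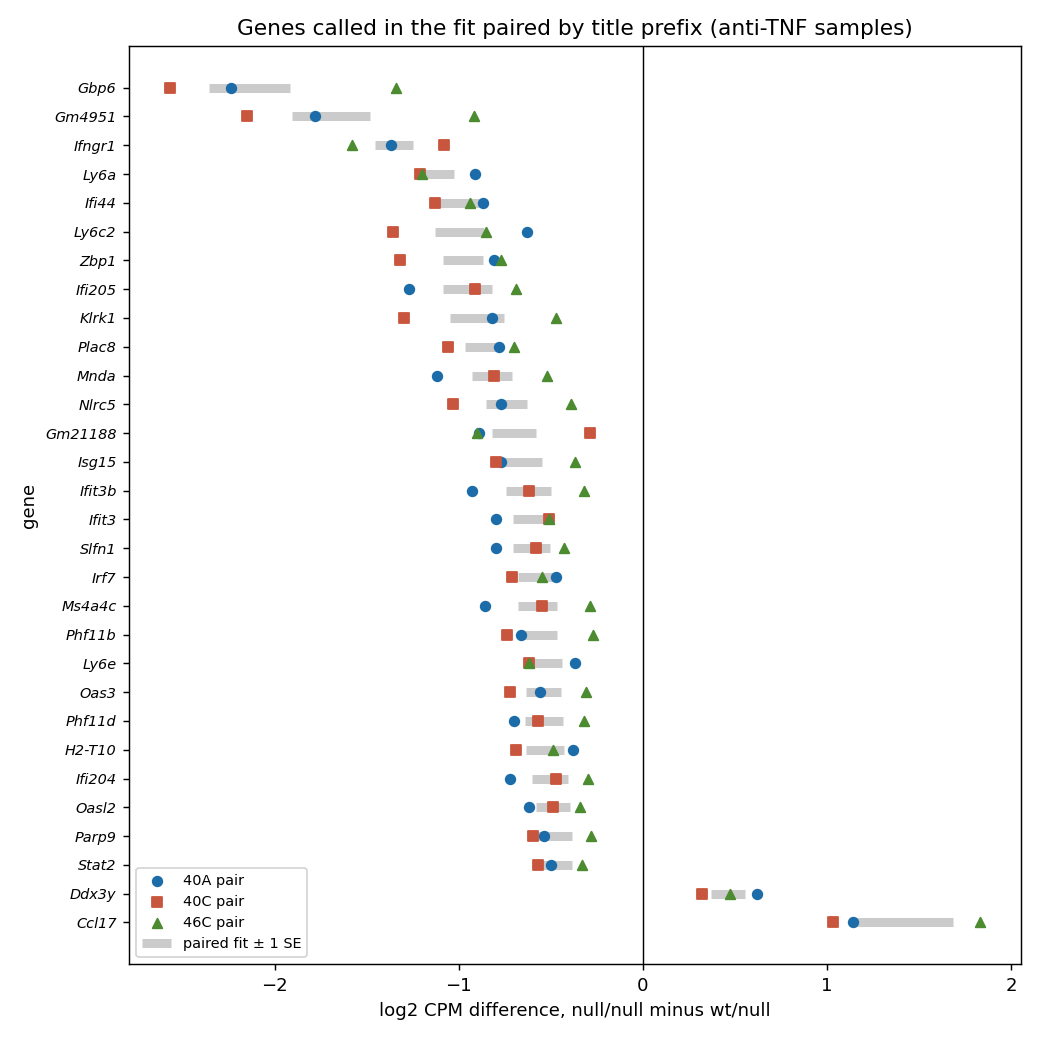
Log2 CPM difference, null/null minus wt/null, in each title prefix pair for the 30 genes called in the paired fit, with the fitted difference ± 1 SE as a grey bar. The 28 genes that fell lie left of 0 in all 3 pairs, and Ccl17 and Ddx3y lie right of it in all 3.

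The ligands of Cxcr3, which draw activated T cells and NK cells, had lower estimates in null/null. Cxcl9 had 17, 118 and 9.16 CPM in 40A2, 40C1 and 46C7, against 4.28, 3.07 and 3 CPM in 40C2, 40A3 and 46C6. The groups did not overlap, but 40C1 was far above the other wt/null samples, while 40C2 was close to the other null/null samples. 40C1 was also the sample with the most Cd8a and Ifng, and it stood apart in other cell markers given above. The part of these markers was not tested. The log2 difference was -3.80 (SE 0.90, unadjusted p = 0.0018; not called by edgeR unpaired) and -2.10 without 40C1 and 40C2. Paired without the 40C pair it was called (edgeR adjusted p = 1.25e-05), and with all 3 pairs it was not (adjusted p = 0.915). Cxcl10 had 110, 267 and 80.6 CPM in wt/null against 84.2, 66.4 and 74.2 in null/null. Its groups overlapped by way of 40C2 and 46C7, its log2 difference was -1.02 (SE 0.38), and without 40C1 and 40C2 it was -0.44 with no overlap. All 4 genes of this list had a lower estimate and 3 of 4 without 40C1 and 40C2, with 2 of 4 lower in all 3 pairs.

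The guanylate-binding proteins, GTPases that coat and break open pathogen vacuoles, had lower estimates in all 9 members tested, with and without 40C1 and 40C2. Their median log2 difference was -1.60, and -0.78 without those libraries, against 0.00 over all genes. By pair the median was -1.14 in 40A, -2.26 in 40C and -0.34 in 46C. Gbp2 had 103, 525 and 80.3 CPM in 40A2, 40C1 and 46C7, against 63.9, 31.1 and 37.2 CPM in 40C2, 40A3 and 46C6. Every null/null sample was below every wt/null sample for Gbp2, Gbp4 and Gbp6, 3 of 9 members, and for 7 of 9 without 40C1 and 40C2. Over all genes tested these shares were 2.58% and 11.1%. The log2 difference of Gbp2 was -2.42 (SE 0.69), and -1.43 without 40C1 and 40C2.

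Gbp6 differed by a more even amount between pairs. It had 8, 43.3 and 7.41 CPM in wt/null and 7.23, 1.63 and 2.88 CPM in null/null, in the same sample order. It fell by 2.14 (SE 0.22, edgeR paired adjusted p = 0.00345), and was called without the 40C pair too (adjusted p = 0.00068), as were Gbp2, Gbp4 and Gbp5. Without the 40A pair Gbp6 was not called (adjusted p = 0.153). With 3 pairs edgeR did not call Gbp2, Gbp4 or Gbp5 (adjusted p = 0.906, 0.621 and 0.698). Gbp5, whose product helps assemble the NLRP3 inflammasome, had 29.7, 99.9 and 26 CPM against 29.8, 13.5 and 18.9. Its groups overlapped because 40C2 lay above 40A2 and 46C7. Of the 9 members, 8 were lower in all 3 pairs (88.9%, against 13.1% of all genes). The exception was Gbp7, at 47.7 CPM in 46C7 and 50.5 in 46C6. Members of this family are near copies of each other, and so are the Tgtp, Serpina3, Ifit3 and Phf11 genes named below, so how reads were divided among copies is uncertain.

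The immunity-related GTPases, which act on the same vacuoles, had lower estimates in 11 of 12 members tested, with and without 40C1 and 40C2, and 11 were lower in all 3 pairs. The median log2 difference was -1.11, and -0.75 without those libraries. Iigp1 had 34.5, 147 and 17 CPM in 40A2, 40C1 and 46C7, against 15.9, 5.52 and 8.8 CPM in 40C2, 40A3 and 46C6. Its groups did not overlap. Its log2 difference was -2.71 (SE 0.74, unadjusted p = 0.00421), and -1.84 without 40C1 and 40C2, and edgeR paired with 3 pairs did not call it (adjusted p = 0.903), nor without the 40C pair, while DESeq2 paired did (adjusted p = 0.0417) and so did edgeR without the 46C pair (adjusted p = 1.19e-11). The member that fell in the paired fit was Gm4951, by 1.70 (SE 0.21, edgeR adjusted p = 0.00719), with 10.1, 31.1 and 6.09 CPM against 6.97, 2.88 and 3.19, and it was not called without the 40A pair (adjusted p = 0.122). Without the 40C pair Gm4951, Tgtp2, Igtp and Ifi47 fell. Irgm1, which regulates the other members and autophagy, had 74.4, 192 and 82.8 CPM in wt/null and 77.6, 43 and 63.7 in null/null, a log2 difference of -0.92 (SE 0.36) that was -0.56 without 40C1 and 40C2. The sample of the null/null group that overlapped was again 40C2. The exception in direction was Irgc1.

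The transcription factors that carry the IFN-γ signal had lower estimates in all 11 members tested, 10 of 11 without 40C1 and 40C2, and 9 were lower in all 3 pairs. Irf1, an early target of IFN-γ, had 138, 359 and 136 CPM in 40A2, 40C1 and 46C7, against 151, 108 and 109 CPM in 40C2, 40A3 and 46C6, and the groups overlapped by way of 40C2. Its log2 difference was -0.78 (SE 0.35) and -0.34 without 40C1 and 40C2. Nlrc5, the transactivator of MHC class I genes, fell in the paired fit by 0.74 (SE 0.11, edgeR adjusted p = 0.0131), with 72, 151 and 63 CPM against 74, 42.3 and 48.1. It was not called without the 40C pair (adjusted p = 0.113) or the 40A pair (adjusted p = 0.114).

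Among 23 other genes that IFN-γ induces, 20 had lower estimates, 19 without 40C1 and 40C2, and 18 were lower in all 3 pairs. Serpina3g, a protease inhibitor of activated leukocytes, had 20.4, 159 and 16 CPM in wt/null against 18, 7.19 and 8.01 in null/null, a log2 difference of -2.55 (SE 0.84) that was -1.26 without 40C1 and 40C2. The samples 40C2 and 46C7 overlapped by 2 CPM. Serpina3f had 5.58, 49.4 and 3.38 CPM against 2.12, 1.01 and 1.63 with no overlap, and a log2 difference of -3.61 (SE 0.94; -1.76 without 40C1 and 40C2). The paired fit without the 40C pair called both Serpina3 genes and the long transcript AW112010. With all 3 pairs edgeR did not call them (adjusted p = 0.919 for each Serpina3 gene and 0.14 for AW112010), nor without the 40A pair. Without the 46C pair it called AW112010 (adjusted p = 2.93e-06) but neither Serpina3 gene. DESeq2 paired with 3 pairs did the same (adjusted p = 2.72e-11 for AW112010).

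Zbp1, a sensor of nucleic acids that can start necroptosis, fell in the paired fit with all pairs and without the 40C pair. It had 75.9, 205 and 86.5 CPM in 40A2, 40C1 and 46C7, against 82.3, 43.3 and 50.6 CPM in 40C2, 40A3 and 46C6. The paired log2 difference was -0.98 (SE 0.11, edgeR adjusted p = 0.000952), with adjusted p = 0.00311 without the 40C pair. Ly6a, the surface protein Sca-1, varied more between pairs than within them. It had 15.8, 163 and 17.7 CPM in wt/null against 70.8, 8.36 and 7.7 in null/null. The groups overlapped, since 40C2 lay above 40A2 and 46C7, yet in each pair the null/null sample was lower. Ly6a fell by 1.13 in the paired fit (SE 0.10, edgeR adjusted p = 3.14e-05), and the call held without the 40C pair (adjusted p = 0.00232), but the unpaired p was 0.279 and the unpaired estimate of Ly6a turned from -1.18 to 0.79 without 40C1 alone.

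Genes for MHC class I loading and the immunoproteasome, which cut and load peptides for T cells, had lower estimates in 18 of 20, with and without 40C1 and 40C2. edgeR paired called 0 of them, with 3 pairs and without the 40C pair. It called 6 lower without the 40A pair and 2 without the 46C pair, and DESeq2 paired called 3 lower. Over all genes tested those last 3 fits called 86, 80 and 56 lower. The median of the 20 was -0.44, and -0.20 without 40C1 and 40C2, and 14 were lower in all 3 pairs. Psme2, a subunit of the proteasome activator, had 133, 195 and 135 CPM in wt/null against 121, 103 and 109 in null/null. These did not overlap, and the log2 difference of Psme2 was -0.47 (SE 0.14, unadjusted p = 0.00497) and -0.34 without 40C1 and 40C2. Tap1, a subunit of the peptide transporter, had 172, 480 and 205 CPM against 197, 125 and 150, with 40C2 inside the wt/null range.

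MHC class II genes had lower estimates in 12 of 13, with and without 40C1 and 40C2, and 7 were lower in all 3 pairs. The groups of 0 of 13 did not overlap, and of 5 of 13 without 40C1 and 40C2, against 11.1% of all genes. edgeR paired called 0 of the 13 with 3 pairs, without the 40C pair and without the 46C pair. Without the 40A pair it called 7 of the 13 lower, against 86 of all 12981 genes tested. DESeq2 paired called 0 of the 13. H2-Aa had 4630, 8330 and 5110 CPM in wt/null and 5310, 4370 and 4070 in null/null, a log2 difference of -0.39 (SE 0.24) that was -0.21 without those libraries. The invariant chain Cd74 had 12300 CPM in 46C7 and 10100 in 46C6 but 9570 in 40A2 and 9880 in 40A3, so the pairs disagreed in direction.

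Type I interferon-stimulated genes, which interferon alpha and beta induce, were lower within pairs while the 3 against 3 groups overlapped. All 39 members tested had a lower estimate in null/null, with and without 40C1 and 40C2, at a median log2 difference of -0.46 and -0.41. Of these, 36 (92.3%) were lower in all 3 pairs, against 13.1% of all genes, and 0 of 39 had groups that did not overlap, against 2.58%. Without 40C1 and 40C2 the groups of 17 of 39 did not overlap, against 11.1% of all genes. T and NK cell genes, given above, were lower in the same pairs 40A and 40C, and their part was not tested. By pair the median was -0.61 in 40A, -0.50 in 40C and -0.27 in 46C. Both 40C samples were above their groups: the median over the list was 0.77 higher on the log2 scale in 40C1 than the mean of the other wt/null samples, and 0.76 higher in 40C2 than the mean of the other null/null samples. These were also the 2 samples with the most Cd8a and Ifng, and they stood apart in the other cell markers given above. The part of these markers was not tested. For the guanylate-binding proteins those medians were 2.48 and 0.91. Over all genes tested they were 0.01 and 0.00.

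The paired fit called 13 of the 39 lower, against 0.216% of all genes tested. Without the 40C pair it called 4 of them, against 0.169% of all genes. Ifit3, which blocks viral RNA translation with its family, had 82.9, 184 and 110 CPM in 40A2, 40C1 and 46C7, against 129, 47.5 and 77.5 CPM in 40C2, 40A3 and 46C6. The groups overlapped by way of 40C2, but every pair was lower in null/null. Ifit3 fell by 0.61 (SE 0.09, edgeR paired adjusted p = 0.00719; 0.0288 without the 40C pair). Isg15, a ubiquitin-like modifier, had 40.3, 91.5 and 54.8 CPM against 52.6, 23.6 and 42.5, and fell by 0.65 (SE 0.10, edgeR paired adjusted p = 0.00977). Without the 40C pair Isg15 was not called (adjusted p = 0.158). Irf7, the regulator that amplifies type I interferon, had 240, 860 and 347 CPM against 524, 174 and 237, and fell by 0.58 (SE 0.10, edgeR paired adjusted p = 0.0131), a call that ended without the 40C pair (adjusted p = 0.295). The samples of prefix 40C were the 2 highest of the 6 for Irf7, and each pair dropped by 0.47 to 0.71. Without 40C1 alone the unpaired estimate of Irf7 turned from -0.63 to 0.09.

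Ifi44 and Ifi205, the latter a DNA sensor of the AIM2-like family, also kept their calls without the 40C pair. Ifi44 had 10.8, 42.4 and 13.2 CPM in wt/null and 19.4, 5.83 and 6.83 in null/null. Ifi205 had 10.7, 34.5 and 15.8 CPM against 18.3, 4.39 and 9.75. They fell by 1.00 and 0.95. Stat2, Oas3, Oasl2, Ifi204, Parp9, Phf11b, Phf11d and Ifit3b fell in the 3-pair fit by 0.48 to 0.62, and were not called without the 40C pair. The 21 inflammatory monocyte and macrophage genes went both ways, with 11 lower (13 without 40C1 and 40C2), a median of -0.06 and 5 lower in all 3 pairs. The 3 that fell in the paired fit were Plac8, Ly6c2 and Ms4a4c, and 1 of them, Plac8, kept the call without the 40C pair. Plac8 and Ly6c2 were also counted above among the 23 other genes that IFN-γ induces. Plac8 had 16.6, 141 and 38.7 CPM in wt/null against 67.5, 9.64 and 23.8 in null/null. The groups overlapped widely and the pairs agreed, and Plac8 fell by 0.87 (SE 0.10, edgeR paired adjusted p = 0.000765), with adjusted p = 0.0233 without the 40C pair. Ly6c2, a marker of recruited monocytes, had 9.64, 77.8 and 21.2 CPM against 30.3, 6.22 and 11.7, and fell by 1.00 (SE 0.13, edgeR adjusted p = 0.004 with 3 pairs, 0.0896 without the 40C pair). Without 40C1 alone the unpaired estimates turned positive, to 0.28 for Plac8 and 0.07 for Ly6c2.

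**Figure D3:**
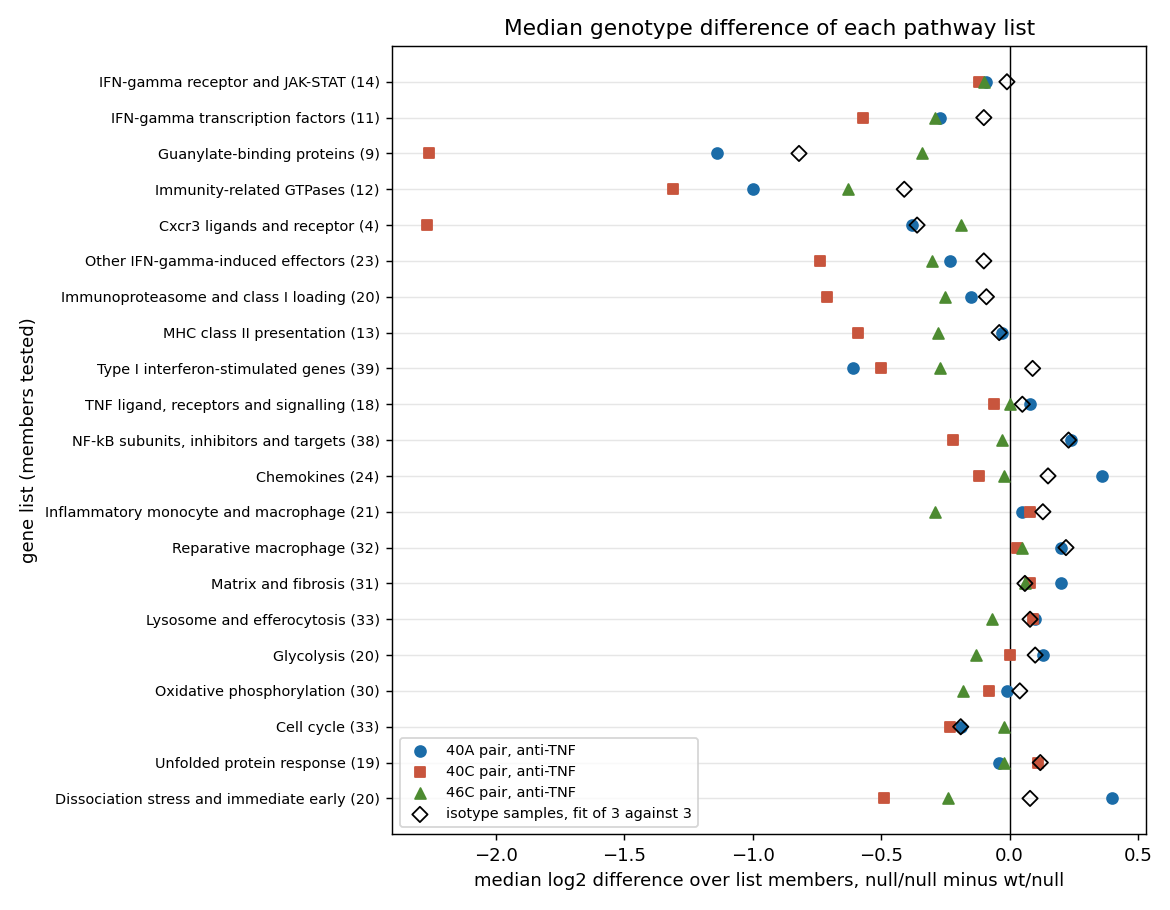
Median log2 difference, null/null minus wt/null, of 21 pathway lists in each anti-TNF title prefix pair, with the isotype comparison of 3 against 3 as open diamonds. The IFN-γ GTPase lists lie left of 0 in all 3 pairs and under isotype, whereas the type I interferon list lies left of 0 in the pairs (-0.61, -0.50 and -0.27) and at 0.09 under isotype.

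Of the genes that fell in the paired fit, 6 were in none of the gene lists: Mnda, an AIM2-like family member, the lymphoid receptor gene Klrk1, Ly6e, Slfn1, H2-T10 and Gm21188. Klrk1 had 15, 76.7 and 16.3 CPM in wt/null and 31.1, 8.48 and 11.7 in null/null, and its unpaired estimate turned to 0.13 without 40C1 alone, as that of Slfn1 did to 0.04. Mnda and Gm21188 kept the call without the 40C pair. Ccl17, a ligand of Ccr4 that attracts regulatory and type 2 T cells, was the 1 chemokine that rose. It had 1.56, 0.778 and 1.59 CPM in 40A2, 40C1 and 46C7, against 1.67, 3.54 and 5.84 CPM in 40C2, 40A3 and 46C6. The groups did not overlap, though the gap between 40C2 and 46C7 was narrow, and all of these levels were low. Ccl17 rose by 1.41 (SE 0.27, edgeR paired adjusted p = 0.0413; 0.0154 without the 40C pair), and was not called without the 46C pair (adjusted p = 0.355). Under isotype its log2 difference was 1.36. Ccl22, the other Ccr4 ligand, was at 0.08 under anti-TNF and 0.87 under isotype.

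The other gene that rose, Ddx3y, is Y-linked. It had 73.3, 64.7 and 46.9 CPM in wt/null against 81, 112 and 64.8 in null/null. Ddx3y was thus present in all 6 samples. Xist, the X-linked gene checked beside the Y-linked ones, was at 0.0757 CPM in 40C2 and at 0 in the others. All 4 Y-linked genes tested were higher in null/null in each pair, though Kdm5d was level in the 46C pair once rounded, at 21.2 CPM in both samples. Uty and Eif2s3y rose in the fit without the 40C pair, where Ddx3y was not called. Under isotype Ddx3y was at -0.20, Uty at -0.25 and Eif2s3y at -0.18. The part of this difference in the others was not tested.

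Genes of the TNF pathway had no common direction. Tnf had 31.2, 105 and 24.1 CPM in wt/null against 42.1, 40.7 and 25 in null/null, and its log2 difference of -0.57 (SE 0.47) became 0.25 without 40C1 and 40C2. The receptors Tnfrsf1a and Tnfrsf1b were at 0.00 and 0.03, and at 0.03 and 0.09 without 40C1 and 40C2. Of 18 ligand, receptor and signalling genes, 0 were lower and 0 higher in all 3 pairs. Of 38 NF-κB genes, 24 had lower estimates with all samples and 4 without 40C1 and 40C2. By pair 4 were lower in 40A, 32 in 40C and 21 in 46C, so the pairs disagreed in direction. Their medians were 0.24, -0.22 and -0.03. Under isotype 1 of 38 was lower, at a median of 0.23. Dissociation stress and immediate early genes, which tissue digestion induces, also changed, with 19 of 20 lower and 5 of 20 without 40C1 and 40C2. They were lower in 19 of 20 in the 40C pair and 15 in 46C, but in 1 of 20 in the 40A pair.

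Among the pathway lists outside interferon and TNF, the medians lay closer to 0 than those of the interferon GTPases. Oxidative phosphorylation genes had lower estimates in all 30 members, with and without 40C1 and 40C2, but at a median of -0.09. In all 3 pairs 13 of 30 were lower (43.3%, against 13.1% of all genes). Under isotype 6 of 30 were lower, at a median of 0.04. Cell cycle genes were lower in 29 of 33 (26 without 40C1 and 40C2), at a median of -0.14, and the isotype median was -0.19. In all 3 pairs 11 of them were lower (33.3%). Reparative macrophage genes were at a median of 0.11, with and without those libraries, and 1 was called in the paired fit, Ccl17, which this list also holds. Matrix genes were at 0.09, lysosome genes at 0.05 and glycolysis genes at 0.01. Without 40C1 and 40C2 these medians were 0.17, 0.03 and 0.00.

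**Figure D4:**
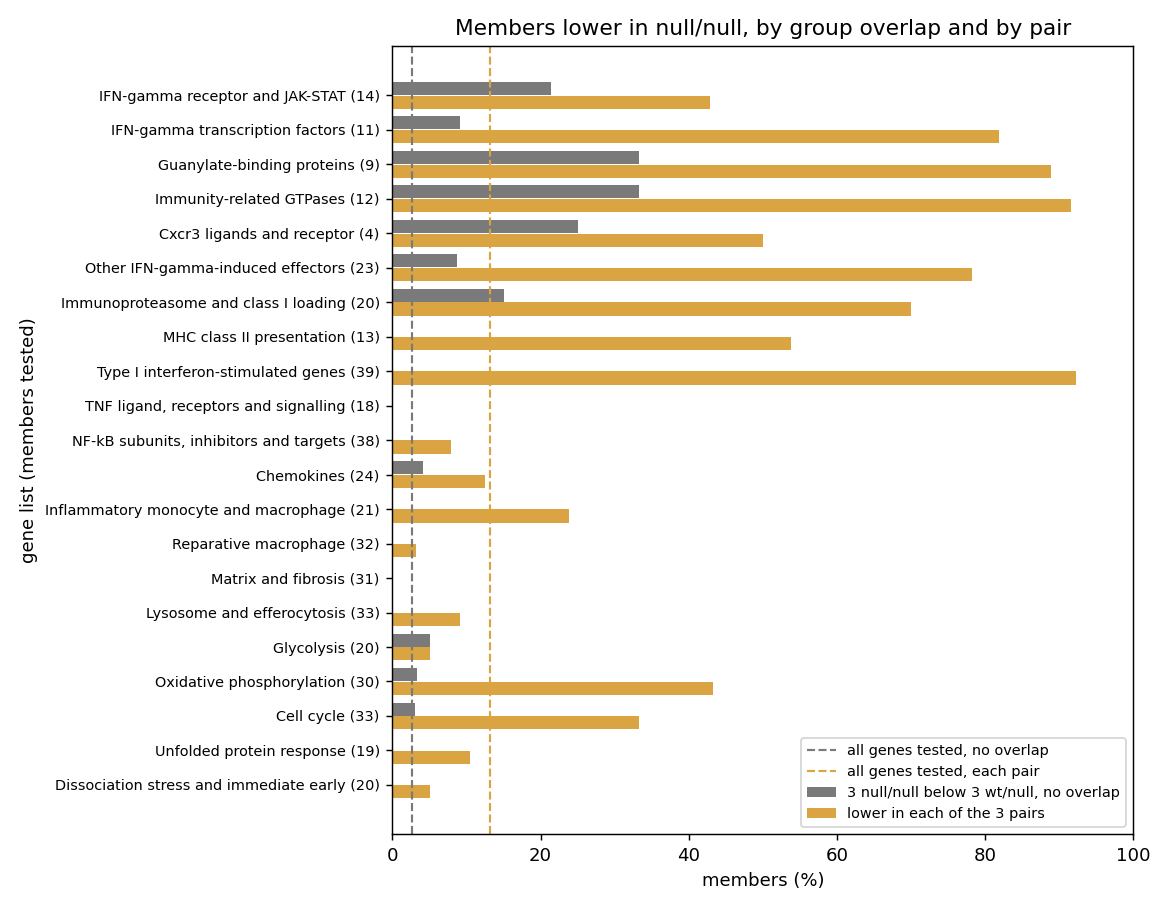
Share of the tested members of 21 pathway lists with all 3 null/null samples below all 3 wt/null samples (grey) and lower in each title prefix pair (yellow), with dashed lines at 2.58% and 13.1%, the shares over all genes. Type I interferon-stimulated genes reach 92.3% by pair and 0 by group, and guanylate-binding proteins 88.9% and 33.3%; without 40C1 and 40C2 (not drawn) 17 of 39 and 7 of 9 do not overlap, against 11.1% of all genes.

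Genotype differences under anti-TNF were set against those under isotype by the interaction of genotype and antibody. edgeR called 0 genes, with 196 at an unadjusted p below 0.05, and DESeq2 and limma voom also called 0, with 192 and 398. Without 40C1 and 40C2 edgeR, DESeq2 and limma voom again called 0. The interferon results above are therefore not shown to be particular to TNF neutralization. The estimates are given side by side: the type I list was at -0.46 under anti-TNF and 0.09 under isotype, with 16 of 39 lower under isotype, and the guanylate-binding proteins were at -1.60 and -0.82, with 9 of 9 lower under both. Zbp1 was at -1.06 and -0.12, with an interaction of -0.94 (unadjusted p = 0.15), and Cxcl9 at -3.80 and -2.34, with an interaction of -1.45 (unadjusted p = 0.25). The same-prefix isotype samples did not deviate together, and pairing them by prefix called 2 genes, Ifngr1 and Ccl22.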

How the data were processed

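The deposited table holds raw counts per gene symbol, made by the authors with bcl2fastq 2.20, STAR and Bowtie on mm10 among the tools named, per the submitters' processing notes. The counting tool, strand setting and annotation are not given in the sources used here. All 12 columns were matched to samples by title. Genes were kept by filterByExpr (12981 of 24421), scaled by TMM and fitted in edgeR 4.0.16 (R 4.3.3) by robust quasi-likelihood with 4 group means on 12 samples, with Benjamini-Hochberg adjusted p below 0.05 as a call, two-sided. DESeq2 1.42.0 and limma 3.58.1 were alternatives. Log2 CPM used a prior count of 2. Same-prefix anti-TNF samples deviated together (r = 0.483 to 0.631, other prefixes -0.408 to 0.0387; isotype -0.00382 to 0.124), and without the 40C pair r was 0.387; the pairing comes from the titles and these correlations. Members and lists were chosen with earlier results of these data known. Genes were named by a rule (ligands and receptors, calls, up to 5 lowest p per list, lowest p overall); genes called in the paired fits were named after their values were seen. Scripts were tested on simulated data.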

Additional observations from a re-analysis of the deposited data

How the results depend on the processing

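Counts of called genes under anti-TNF were 1 in the unpaired fit and 1 with any sample left out, 2 by DESeq2, 2 by DESeq2 without 40C1 and 40C2, 0 with only the 6 anti-TNF samples (130 at an unadjusted p below 0.05) and 30 paired by title prefix. Paired, DESeq2 called 60, and edgeR 149 without the 40A pair and 95 without the 46C pair. Under isotype 1 was called, against 2 by DESeq2, 8 by DESeq2 without 40C1 and 40C2, and 2 paired. Title number or title prefix as a block on all 12 samples called 1. Genes whose groups do not overlap numbered 669, and 2899 without 40C1 and 40C2, where 2 stand against 2. Tnf went from -0.57 to 0.25 without 40C1 and 40C2 (0.22 with the prefix block, 0.25 by DESeq2, 0.22 by limma voom). With each sample left out in turn, Tnf ranged from -0.92 to 0.38, Tnfrsf1b from -0.06 to 0.08, Irf7 from -1.23 to 0.09, Ly6a from -3.03 to 0.79, Ly6c2 from -2.01 to 0.07, Plac8 from -1.96 to 0.28, Slfn1 from -1.18 to 0.04, Ms4a4c from -1.35 to 0.25, Klrk1 from -1.83 to 0.13, Ccl22 from -0.05 to 0.25, Cd8a from -2.54 to 0.48 and Ifng from -3.34 to 0.58. Of 1443 values of 76 genes, 16 in 12 genes changed sign. The highest values were those without 40C1. The cause was not tested. With 3 samples a group, or 2 pairs, calls rest on few samples.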
